A study of Homo sapiens with 24 samples.

Results

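METTL3 knockdown was examined in 22Rv1 cells under androgen, across all genes measured. The comparison was made of the 6 libraries, out of 24 in the series, whose labels give the cell line 22Rv1 and the treatment R1881: 3 with siRNA against METTL3 (siMETTL3) and 3 with the siScramble non-gene targeting control (siSCR). 22Rv1 is a human prostate cancer cell line that grows in castrate conditions, and R1881 is a synthetic androgen. The cells were kept in medium stripped of steroids, transfected with a pool of siRNAs, transfected again after 48 h and given R1881 at 1 nM for 72 h. The other libraries used here for comparison were 22Rv1 given vehicle (ethanol) and LNCaP:C42 given R1881, with 3 siMETTL3 and 3 siSCR libraries each. Pools of siRNAs were used for both arms, so single siRNAs cannot be told apart. The labels number the replicates and do not say that they were separate cultures, so the p-values measure the spread between these libraries, which may be technical. Protein was not measured in these data.

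METTL3 is the catalytic subunit of the nuclear complex that methylates adenosine in RNA at the N6 position (m6A). The mark is placed co-transcriptionally, mostly near stop codons and in 3′ untranslated regions (3′ UTRs), is read by YTH-domain proteins and is removed by FTO and ALKBH5. It is best known for shortening the life of the mRNAs that carry it, and it also acts on splicing and translation. RNA abundance alone does not show which transcripts were methylated.

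The authors counted sequenced fragments per gene, and each of the 6 libraries held 15716224 to 18287758 counts. The CPM of a gene is its count relative to the library total, and the CPM of genes given here were scaled by the TMM method. At these depths 3 counts, taken as the smallest readable signal, equalled 0.164 to 0.191 CPM before that scaling. This floor covers counting error only. Principal component 1 of the 6 libraries held 39.6% of the variance and separated the siRNA arms. Mitochondrial genes took 3.93% to 4.24% of the counts with siMETTL3 and 4.96% to 5.28% with siSCR, and the arms did not overlap. In the vehicle libraries of 22Rv1 the arms overlapped, at 5.0% to 7.4% with siMETTL3 and 6.1% to 6.9% with siSCR. All 13 markers of prostate luminal cells found in the annotation were measurable. KRT8, a luminal keratin, was at 515 ± 20.7 and 568 ± 43.9 CPM (mean ± SD, n = 3) in the siSCR and siMETTL3 arms. The 5 endothelial markers had at most 3 counts in every library, as had 5 of 7 immune markers, 2 of 7 fibroblast markers and 3 of 6 basal markers.

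METTL3 itself was lower in every siMETTL3 library. METTL3 (ENSG00000165819, minus strand of chromosome 14, 21498133 to 21511375 in GRCh38) was at 54.99, 51.9 and 54.8 CPM in siSCR libraries 1 to 3 and at 22.7, 26.1 and 22.4 CPM in siMETTL3 libraries 1 to 3. The arms lay far apart, and 44.01% of the siSCR mean was left. The log2 fold change was −1.18 with a standard error of 0.08 (edgeR quasi-likelihood test, Benjamini-Hochberg adjusted p = 1.29e-08). The exact two-sided permutation test over the 6 libraries gave p = 0.1, the smallest that 3 against 3 can give. TOX4 overlaps METTL3 on the other strand, and the counting used no strand.

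Knockdown moved many genes by a small amount and few by a large one. Differentially expressed genes (DEGs) were called at an adjusted p under 0.05 in the edgeR test that also changed by 1.5-fold or more. Of 17865 genes tested, 587 were DEGs, or 3.29%. Of these 411 were higher with siMETTL3 (2.3% of the genes tested) and 176 lower (0.985%). Without the fold threshold 2897 genes passed (16.2%), 1596 higher (8.93%) and 1301 lower (7.28%), and their median absolute log2 fold change was 0.39. The median over all genes tested was −0.02. A change of at least 2-fold was found for 117 DEGs that were higher and 55 that were lower. The arms did not overlap in 582 of the 587 DEGs, against 42.8% of all genes tested.

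The number of DEGs rested on single libraries. It was 309 (221 higher, 88 lower) without siMETTL3 replicate 1 and 349 (260 higher, 89 lower) without siSCR replicate 2. In all 6 fits that left out a library, 163 of the 411 DEGs that were higher and 50 of the 176 that were lower were called again in the same direction. With the 1.5-fold threshold placed inside the test (glmTreat), 10 genes passed. The 4 that were lower were TMEM123, METTL3, GNB1 and PM20D2. The 6 that were higher were BEST2, PSENEN, PHGR1, TMEM256, LGALS2 and APOA5, of which the last 3 are named here after their values were seen.

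**Figure D1:**
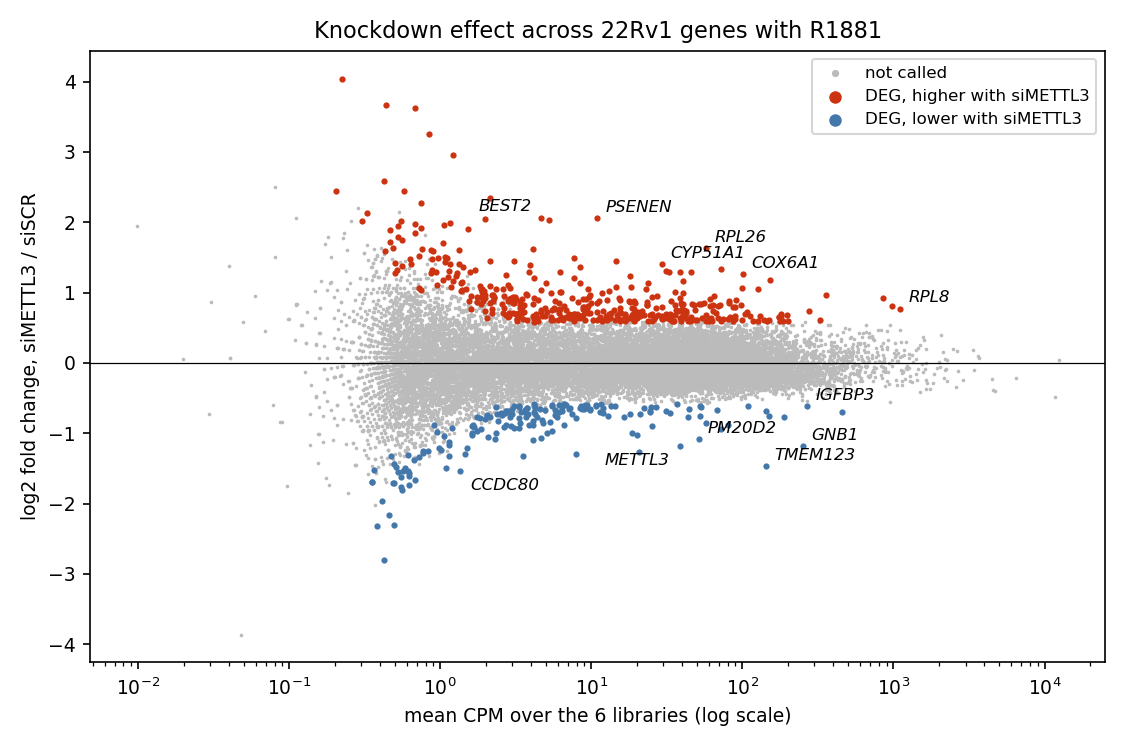
Each point is 1 of the genes tested in 22Rv1 with R1881, with its mean CPM over the 6 libraries on a log axis and its log2 fold change (siMETTL3 over siSCR) on the other. The 411 DEGs that were higher (red) reach to abundant mRNAs such as RPL8, and TMEM123, GNB1 and METTL3 lie among the strongest falls (blue) of genes above 10 CPM.

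TMEM123, GNB1 and PM20D2 were the protein-coding genes other than METTL3 with the strongest falls above 10 CPM. TMEM123, a cell-surface sialomucin also known as porimin, was at 204, 216 and 211 CPM in the siSCR libraries and at 75.4, 74.99 and 77.8 CPM in the siMETTL3 libraries. GNB1, a β subunit of heterotrimeric G proteins, was at 342, 350 and 357 CPM against 162, 151 and 149 CPM. PM20D2, a peptidase of the M20 family, was at 68.6, 67.1 and 74.1 CPM against 34, 32.8 and 32.3 CPM. Each gene was tightly grouped within an arm and well separated between arms. Their log2 fold changes were −1.47 (SE 0.10), −1.18 (SE 0.06) and −1.08 (SE 0.10), with edgeR adjusted p of 1.29e-08, 2.22e-10 and 8.64e-07. All 3 were called in every one of the 6 fits with a library left out.

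Further falls of this kind were found in genes of varied function. RRP1B, a nucleolar protein of ribosome biogenesis, fell from 94.4 ± 2.88 to 49.2 ± 3.11 CPM (SD, n = 3 per arm). COPS8, a subunit of the COP9 signalosome, fell from 74.5 ± 2.05 to 41.0 ± 1.66 CPM. AASDHPPT, the transferase that attaches phosphopantetheine to carrier proteins, fell from 104 ± 3.43 to 56.4 ± 4.11 CPM. PHACTR2, a regulator of phosphatase 1 and actin, fell from 32.8 ± 2.45 to 17.5 ± 1.25 CPM, and VASH2, a tubulin carboxypeptidase, from 4.34 ± 0.289 to 2.30 ± 0.421 CPM. Their log2 fold changes ran from −0.86 for COPS8 to −0.94 for RRP1B, with edgeR adjusted p from 1.11e-06 (RRP1B) to 0.00481 (VASH2), and each was called in all 6 fits with a library left out.

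**Figure D2:**
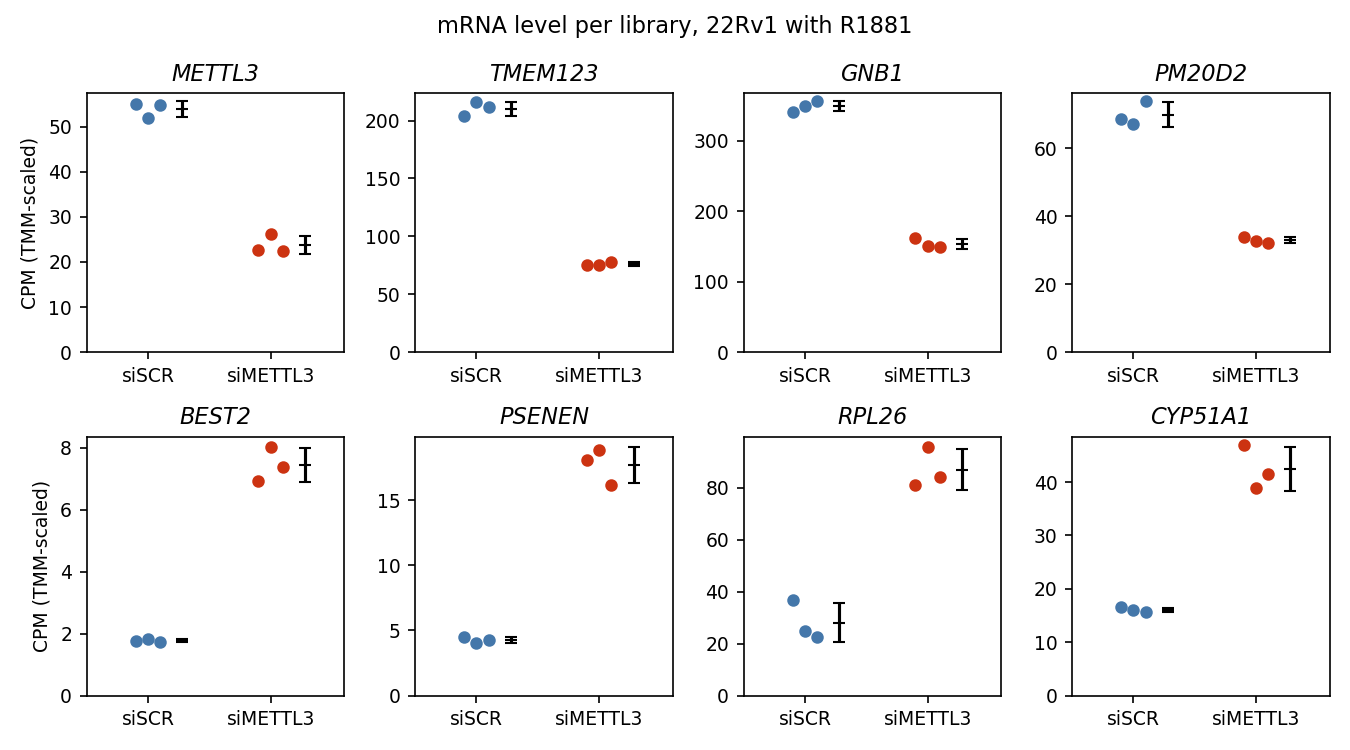
CPM of 8 genes in each of the 6 libraries, siSCR in blue and siMETTL3 in red, with bars for the mean and SD of 3 libraries and each axis starting at 0. METTL3, TMEM123, GNB1 and PM20D2 (top) were lower and BEST2, PSENEN, RPL26 and CYP51A1 (bottom) higher in all 3 siMETTL3 libraries, with no overlap between arms. Arms that do not overlap were a condition for naming BEST2, PSENEN and RPL26, and were found in 42.8% of all genes tested.

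The remaining genes among the 10 largest falls were expressed at 1.56 to 2.09 CPM with siSCR or were pseudogenes. CCDC80, a secreted matrix protein, was at 1.84, 1.89 and 2.35 CPM in the siSCR libraries and at 0.517, 0.608 and 0.937 CPM with siMETTL3 (log2 fold change −1.54, SE 0.33, edgeR adjusted p = 0.00486). RPSAP47, a pseudogene of the ribosomal protein gene RPSA whose reads cannot be fully separated from those of its parent, went from 29.4 ± 5.25 to 12.2 ± 1.18 CPM. The others were the glutamate receptor GRM7, the olfactory receptor OR8G5, the antisense RNA KANSL1L-AS1, the pseudogene ANKRD20A4P and the glycosyltransferase B3GNT5, with log2 fold changes from −1.12 to −1.33. ANKRD20A4P and B3GNT5 were called in 0 of the 6 fits with a library left out (edgeR adjusted p up to 0.176 and 0.178), KANSL1L-AS1 in 1 and GRM7 in 3. KANSL1L-AS1 lies within KANSL1L on the other strand, so their reads cannot be told apart.

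Several of the mRNAs with the strongest falls held the same 7 bases, CCGTACT, in the 3′ UTR. The sites are shown because TMEM123, GNB1, PM20D2, RRP1B, PHACTR2 and COPS8 each held 1 copy. The stretches run 5′ to 3′ on the mRNA, with the 7 bases in capitals and 11 bases on either side, and were read from GRCh38 with the GENCODE 44 canonical transcripts. The coordinates span the letters shown.
TMEM123, chr11:102396714-102396742, minus strand: ctttcaaatacCCGTACTttgaatgtagg
GNB1, chr1:1786964-1786992, minus strand: atcctatccaaCCGTACTaacgtggacac
PM20D2, chr6:89162437-89162465, plus strand: tttttgcaaatCCGTACTtgataggatta
RRP1B, chr21:43693785-43693813, plus strand: taccgtattcgCCGTACTaagttggtttc
PHACTR2, chr6:143830630-143830658, plus strand: cttttttaattCCGTACTggtatttgtgt
COPS8, chr2:237098068-237098096, plus strand: cccagcacatgCCGTACTcttatatgtac
METTL3, chr14:21500523-21500551, minus strand: gctcaacatacCCGTACTacaggatgatg
The copy in METTL3 lies in the coding sequence, at base 1376 of a canonical transcript whose 3′ UTR begins at base 1861, and its 3′ UTR held 0 copies. AASDHPPT and VASH2 held 0 copies in their canonical 3′ UTRs.

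Genes with the CCGTACT site in the 3′ UTR had lower log2 fold changes than other genes. The letters were searched on the mRNA strand only, and 1.27% of 19559 canonical 3′ UTRs held them. Among 12882 genes with a 3′ UTR whose average in the 12 libraries of 22Rv1 was 1 CPM or more, 173 were carriers. Their median log2 fold change was −0.21 against −0.01 for the other genes, and 76.9% of them were negative against 52.1%. Of the carriers 17 were DEGs that were lower (9.83%) and 1, the ribosomal protein gene RPL36, was higher, against 0.716% of the other genes that were lower. In the siSCR libraries the median deviation of carriers from their own mean over the 6 libraries was 0.12, 0.09 and 0.11 on the log2 scale. In the siMETTL3 libraries it was −0.11, −0.11 and −0.06.

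The site had been noted in the vehicle libraries of the same cell line, and its values are a description. When all 7-base words with at least 50 carriers were ranked by the standardized difference in mean log2 fold change between carriers and other genes, the lowest word was TTTTAAA (6842 carriers, rank 1 of 16217 in both treatments), a word of A and T only. Its difference of medians between carriers and other genes was −0.22 and became −0.017 with the offset described next. An offset for GC content and gene length was then added to the fit, a choice made after seeing the data. CCGTACT was taken as the lowest word in vehicle with that offset, so its rank of 1 of 16217 there was fixed by the choice. In the other libraries it ranked 1 of 16217 with R1881 and 1 of 16195 in LNCaP:C42 with R1881. Without that offset it ranked 8733 in LNCaP:C42. With the offset the median log2 fold change with R1881 was −0.15 for carriers and 0.01 for the others. In that fit 13 carriers were DEGs that were lower (7.51%), against 0.567% of the others and 0.884% of all genes tested. Of the 173 carriers, 16 were protocadherins of the PCDHG cluster, which share 1 3′ UTR and so 1 copy of the site. PCDHGB7, PCDHGB1 and PCDHGA2 of this cluster were DEGs at 1.27 to 1.58 CPM with siMETTL3 against 2.20 to 2.68 CPM with siSCR, each called in 1 of 6 fits with a library left out. B3GALT5, a galactosyltransferase at 0.676 ± 0.0409 against 0.267 ± 0.0490 CPM (SD, n = 3), was a carrier and a DEG in the full fit and in 0 of the 6 others, and it met the 1 CPM minimum through the vehicle libraries. The other carriers that fell, named after their values were seen, were EMSY, PIP4K2A, RORB, FAM117A, TGS1, ZBTB34 and ZNF654, with log2 fold changes from −0.63 to −0.76, and 5 of these 7 were called in all 6 fits with a library left out.

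**Figure D3:**
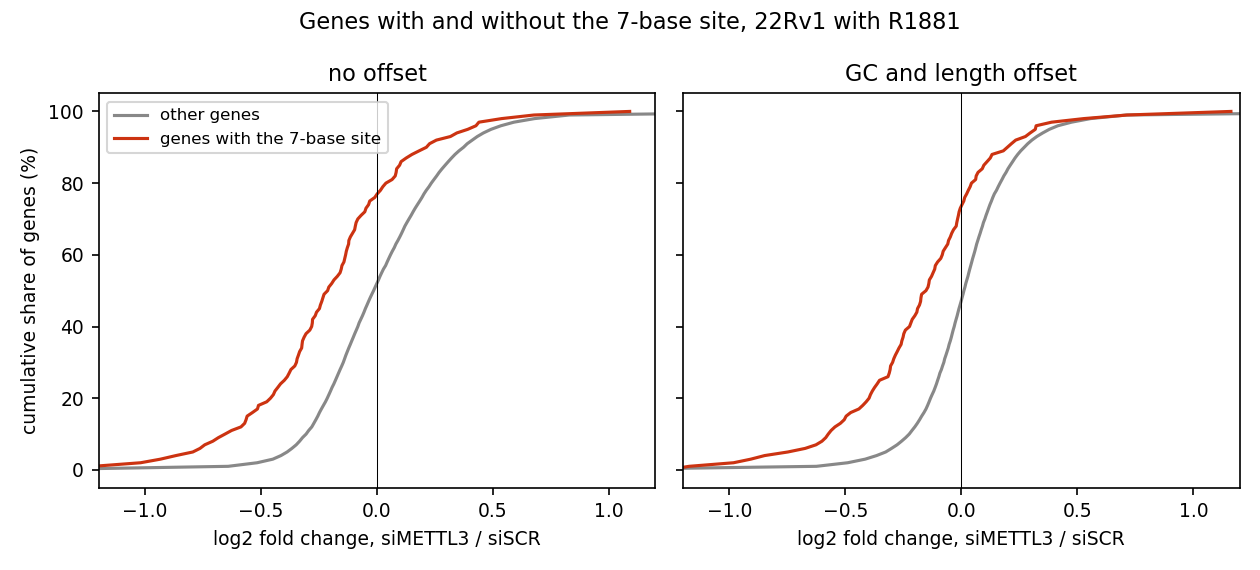
Cumulative share of genes (%) against the log2 fold change in 22Rv1 with R1881, for the 173 genes with the 7-base site in the 3′ UTR (red) and the other genes (grey), without (left) and with (right) an offset for GC content and gene length. The red curve lies to the left in both panels, with medians of −0.21 against −0.01 and of −0.15 against 0.01.

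The largest rises were in genes with few counts and in a few short mRNAs. BEST2, a bestrophin chloride channel, was at 1.78, 1.83 and 1.72 CPM in the siSCR libraries and at 6.92, 8.03 and 7.38 CPM in the siMETTL3 libraries. PSENEN, a small subunit of γ-secretase, was at 4.47, 4.02 and 4.24 CPM against 18.1, 18.9 and 16.2 CPM. The arms lay far apart for both genes, and arms that do not overlap were a condition for naming them. The log2 fold changes were 2.06 for BEST2 (SE 0.19, edgeR adjusted p = 1.11e-06) and 2.06 for PSENEN (SE 0.28, adjusted p = 0.000207). PSENEN overlaps U2AF1L4 on the other strand.

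RPL26, a protein of the large ribosomal subunit, rose at a higher level of expression. It was at 36.6, 24.9 and 22.7 CPM with siSCR and at 81.1, 95.7 and 83.9 CPM with siMETTL3 (log2 fold change 1.63, SE 0.27, edgeR adjusted p = 0.00109). RPL26 overlaps 2 annotated genes, 1 of them on the other strand. PHGR1, a small protein of the gut epithelium, rose from 2.05 ± 0.490 to 8.37 ± 1.82 CPM. The small nucleolar RNA SNORD104, the mitochondrial histidine tRNA MT-TH, the pseudogene RPL24P4, the Golgi glycosyltransferase MGAT2 and STPG3 were also among the 10 largest rises, with means of 0.27 to 0.69 CPM with siSCR and 1.59 to 3.56 CPM with siMETTL3. Their log2 fold changes ran from 1.71 to 2.95, and RPL24P4 and MGAT2 were called in 4 and 3 of the 6 fits with a library left out. SNORD104 (70 bases) and MT-TH (69 bases) are shorter than the fragments usually sequenced, and SNORD104 lies within SNHG25. STPG3 and MGAT2 each overlap a gene on the other strand.

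The direction of change followed base composition across the genome. Among 2662 genes with a transcript GC content over 60% the median log2 fold change was 0.25, and 172 DEGs were higher and 2 lower. Among 2885 genes with a GC content of up to 40% the median was −0.20, and 10 DEGs were higher and 47 lower. The classes between them rose in order, from −0.14 to 0.15. In single libraries, genes over 60% GC deviated from their mean over the 6 libraries by a median of −0.07, −0.12 and −0.15 on the log2 scale with siSCR and by 0.19, 0.09 and 0.08 with siMETTL3. The same order was found in vehicle, with medians from −0.13 to 0.13, and in LNCaP:C42 with R1881, with medians from −0.28 to 0.39. DEGs that were higher were also shorter: their median exon length was 2084 bases against 4203 for all genes tested and 4481 for DEGs that were lower.

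With an offset for GC content and gene length, added after seeing the data, 393 genes were DEGs (2.2% of those tested), 235 higher and 158 lower. Of the original DEGs, 203 of the 411 that were higher and 100 of the 176 that were lower were called again. The part of base composition and length in the remaining changes was not tested. A set of 116 genes, 84 higher and 32 lower, was called with this offset, in all 7 other fits to the data and in all 6 fits with a library left out. METTL3, TMEM123, GNB1, PM20D2, RRP1B, PHACTR2, COPS8, AASDHPPT and VASH2 were among the 32.

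**Figure D4:**
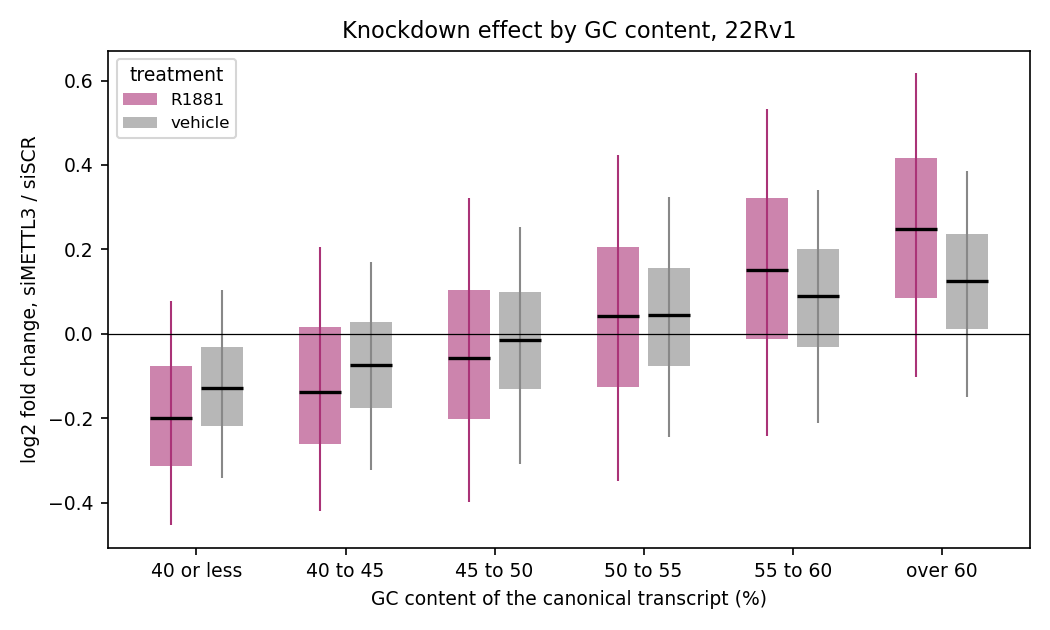
Log2 fold change (siMETTL3 over siSCR) of 22Rv1 genes in 6 classes of GC content, with R1881 (purple) and vehicle (grey). Bars span the interquartile range of a class, lines run from percentile 10 to 90 and the black marks are medians, which rose from −0.20 to 0.25 with R1881 and from −0.13 to 0.13 in vehicle.

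Gene lists were then read for the biology of m6A, the androgen axis and cell state. Of 375 distinct listed genes that were tested, 8 were DEGs, or 2.13%, against 3.29% of all genes. Where 3.29% of all genes are DEGs, a short list with 0 DEGs is not set apart from all genes. Of the 24 lists with a tested member, 16 held 0 DEGs with edgeR and 0 with DESeq2, and these 16 had 0 to 13 members each at an unadjusted edgeR p under 0.05. Over all genes tested the median log2 fold change was −0.02, 52.8% were negative, and 8.93% passed the adjusted p above 0 and 7.28% below it.

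The m6A machinery other than METTL3 held 0 DEGs, beside 3.29% of all genes tested. METTL3 was the DEG among the 9 genes of the writer list (the writer complex and METTL16), whose median was −0.11. RBM15B, an adaptor of the complex, was at 142 ± 6.70 CPM with siSCR and 175 ± 4.62 CPM with siMETTL3 (log2 fold change 0.29, SE 0.09, edgeR adjusted p = 0.0340), below the fold threshold. The scaffold proteins VIRMA, ZC3H13 and WTAP had log2 changes of −0.12, −0.12 and −0.11 (adjusted p in edgeR from 0.299 to 0.359). Of 12 readers and erasers 0 passed the adjusted p, with log2 fold changes from −0.27 to 0.18. The median of this list was −0.09 and turned to 0.04 with the GC and length offset, as that of the writers turned to 0.08. With that offset the readers HNRNPA2B1 and HNRNPC passed, at 0.39 and 0.29 on the log2 scale against 0.18 and 0.11 without it (adjusted p in edgeR of 0.00312 and 0.00364 with the offset).

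Of 25 androgen response genes tested, TMPRSS2 was the DEG, beside 3.29% of all genes tested. TMPRSS2, a serine protease, was at 5.85, 4.91 and 4.64 CPM with siSCR and at 11.1, 10.7 and 7.44 CPM with siMETTL3. It was low in both arms but did not overlap between them (log2 fold change 0.92, SE 0.18, edgeR adjusted p = 0.00302). In vehicle the knockdown gave TMPRSS2 a log2 fold change of 0.68 (edgeR adjusted p = 0.0726). KLK3, which encodes prostate-specific antigen, was at 6.54, 6.57 and 7.97 CPM against 10.99, 7.97 and 7.03 CPM, and the arms overlapped (log2 fold change 0.30, SE 0.16, adjusted p = 0.192). FKBP5, an HSP90 co-chaperone, was the most abundant of the list at 1978 ± 91.4 and 1878 ± 62.3 CPM (log2 fold change −0.07, adjusted p = 0.425), and its sign turned to 0.09 with the GC and length offset. In the siSCR arm TMPRSS2 and KLK3 were not higher with R1881, with means of 5.13 and 7.02 CPM against 6.78 and 7.10 CPM in vehicle. FKBP5 was higher, at 1978 CPM against 197 CPM. Below the fold threshold, the kallikrein KLK4 was higher (0.42) and the metalloreductase STEAP2 and the acyl-CoA synthetase ACSL3 lower (−0.50 and −0.28) at edgeR adjusted p of 0.00771, 0.00332 and 0.0192. With the offset STEAP2 passed at −0.27, while KLK4 (0.15, adjusted p = 0.0547) and ACSL3 (−0.07, adjusted p = 0.447) did not, and 5 other members passed that had not done so without it. The median of the list was −0.04, and 0.07 with the offset.

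Nuclear receptor coregulators and lineage factors held 0 DEGs among 12, beside 3.29% of all genes tested. The pioneer factor FOXA1 was at 403 ± 11.7 and 397 ± 7.47 CPM (log2 fold change −0.02, edgeR adjusted p = 0.862). The corepressor NCOR1 and the coactivators NCOA2 and NCOA3 had log2 changes of −0.26, −0.26 and −0.22 (adjusted p in edgeR from 0.00938 to 0.0498), and HOXB13, a homeobox factor of the prostate, had 0.36 (adjusted p = 0.0179). With the GC and length offset NCOR1, NCOA2 and NCOA3 no longer passed (−0.10, −0.11 and −0.06, adjusted p from 0.135 to 0.549), and HOXB13 did (0.19). The median of the list was −0.08.

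Most proliferation genes had negative log2 fold changes and most p53 targets positive ones, with 1 DEG among these lists. Of 31 DNA replication genes 23 were negative, and the helicase subunits MCM3, MCM4 and MCM6 and the loading factor CDC6 passed the adjusted p with log2 fold changes from −0.19 to −0.30. MCM4 and MCM6 did not pass with the GC and length offset (adjusted p of 0.128 and 0.0997 in edgeR), and the median of the list was −0.09 without and −0.06 with it. Of 24 mitosis genes 18 were negative and 1 passed the adjusted p below 0, with a median of −0.10 that was −0.01 with the offset. BBC3, the pro-apoptotic protein PUMA, was at 106, 104 and 91.9 CPM with siSCR and at 160, 146 and 152 CPM with siMETTL3 (log2 fold change 0.59, SE 0.13, edgeR adjusted p = 0.00517). It stood just past the fold threshold, was called in 4 of 6 fits with a library left out, and its log2 fold change was 0.27 with the offset. Of 22 p53 targets 15 were positive, 7 passed the adjusted p above 0 and 2 below it, and 3 and 1 of these passed with the offset. The median was 0.15, and 0.10 with the offset. The cell cycle inhibitor CDKN1A was at 121 ± 8.64 and 164 ± 8.404 CPM (log2 fold change 0.45, adjusted p = 0.00156), and the ubiquitin ligase MDM2 at 178 ± 3.50 and 142 ± 5.34 CPM (−0.33, adjusted p = 0.0122). With the offset CDKN1A was at 0.28 and passed, and MDM2 was at −0.10 and did not (adjusted p = 0.169).

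Stress and signalling lists held 0 DEGs but had members past the adjusted p. Of 25 immediate early genes and MAPK feedback genes, 6 passed the adjusted p above 0 and 0 below it, with a median of 0.16. These were IER2, JUN, JUND, EGR1, DUSP1 and ETV4, with log2 fold changes from 0.39 to 0.57 and edgeR adjusted p from 0.00161 to 0.00553. With the GC and length offset JUND was at 0.03 (adjusted p = 0.788) and the other 5 passed, and the median was 0.08. MYC was at 325 ± 13.9 and 328 ± 14.1 CPM (log2 fold change 0.01, adjusted p = 0.909). Of 20 interferon and double-stranded RNA sensing genes 3 passed above 0 and 0 below it, among them ISG15, a ubiquitin-like protein, at 138 ± 0.502 and 187 ± 5.02 CPM (0.44, adjusted p = 0.00313). ISG15 did not pass with the offset (0.11, adjusted p = 0.245), and the median of the list was 0.0034. Of 20 genes of the unfolded protein and integrated stress response 3 passed above 0 and 5 below it, of which 0 and 2 passed with the offset, and the median was 0.03. The endoplasmic reticulum chaperones HSP90B1 and HSPA5 were below the fold threshold with log2 changes of −0.37 and −0.26 (adjusted p of 0.00355 and 0.0283 in edgeR).

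Cholesterol synthesis held the strongest rise of any list. CYP51A1, lanosterol 14α-demethylase, was at 16.5, 16.03 and 15.6 CPM with siSCR and at 46.9, 38.9 and 41.5 CPM with siMETTL3. The arms were far apart (log2 fold change 1.40, SE 0.26, edgeR adjusted p = 0.00232), and it was called in all 6 fits with a library left out. Its locus overlaps LRRD1 and the antisense RNA CYP51A1-AS1. TM7SF2, a sterol reductase whose gene overlaps VPS51, rose from 54.0 ± 2.49 to 84.2 ± 2.25 CPM (0.64, adjusted p = 0.00200), with 0.39 under the GC and length offset. Of the 24 members tested 7 passed the adjusted p above 0 and 0 below it, and the others of the 7 were PMVK, MVD, LSS, EBP and DHCR7, with log2 fold changes from 0.28 to 0.49. PMVK and DHCR7 did not pass with the offset (adjusted p of 0.164 and 0.139 in edgeR). The upstream enzyme HMGCS1 and the regulator SREBF2 had −0.15 and 0.02 (adjusted p = 0.185 and 0.887), and the median over the list was 0.05. Among 22 fatty acid genes and 30 glycolysis and HIF-1 targets 0 were DEGs, with medians of 0.05 and 0.01.

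UDP-glucuronosyltransferases inactivate androgens and other small molecules, and the genes of their list mostly had negative log2 fold changes. The list also held UGT8, which is not a glucuronosyltransferase (log2 fold change −0.25). Of 9 tested 8 were negative, with a median of −0.31 that was −0.20 with the GC and length offset. UGT1A1, the bilirubin-conjugating enzyme, fell from 7.80, 4.50 and 6.71 CPM to 3.04, 2.80 and 3.22 CPM (log2 fold change −1.07, SE 0.23, edgeR adjusted p = 0.00558). It shares exons with the other UGT1A genes, and fragments on shared exons were not counted. UGT2B15, which conjugates dihydrotestosterone, was at 152 ± 10.1 and 117 ± 3.18 CPM (−0.38, adjusted p = 0.00583), below the fold threshold. The UGT2B genes are similar in sequence, some of them closely, so their counts are uncertain.

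Adhesion and epithelial genes changed in both directions. ITGA6, the integrin α6 chain, fell from 5.30 ± 0.927 to 3.20 ± 0.386 CPM (log2 fold change −0.72, SE 0.20, edgeR adjusted p = 0.0212), was called in 2 of 6 fits with a library left out and was past the threshold no longer with the GC and length offset (adjusted p = 0.0616). Of 30 matrix and focal adhesion genes 1 passed the adjusted p above 0 and 4 below it, of which 1 and 2 passed with the offset, and the median was −0.09. Of 15 genes of the epithelial and mesenchymal state 6 passed above 0 and 3 below it, with 0 DEGs and a median of 0.02. With the offset 3 and 3 of these passed. The tight junction protein CLDN7 was at 301 ± 3.51 and 436 ± 5.22 CPM (0.53, adjusted p = 0.00204), and the epithelial splicing factor ESRP1 at 356 ± 11.2 and 263 ± 7.72 CPM (−0.44, adjusted p = 0.00161).

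Most genes of the small RNA pathway had negative log2 fold changes, with 0 DEGs. Of 13 members 11 were negative and 6 passed the adjusted p below 0. DICER1, the nuclease that cuts out microRNAs, was at 118 ± 3.06 and 91.8 ± 5.80 CPM (log2 fold change −0.36, edgeR adjusted p = 0.0127), and TNRC6A, a silencing cofactor, at 94.7 ± 3.05 and 73.4 ± 3.73 CPM (−0.37, adjusted p = 0.00537). AGO2, AGO3, AGO4 and TNRC6B also passed, and the Dicer partner TARBP2 was higher (0.44, adjusted p = 0.00996). The median of −0.22 was −0.08 with the GC and length offset, under which TNRC6A was the 1 of the 6 that still passed. Of 28 splicing regulators 3 passed the adjusted p above 0 and 4 below it, led by SRSF9 (0.55) and the kinase CLK1 (−0.51), and the median was −0.01. With the offset 3 and 3 of these passed, with 5 others above 0.

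Of 6 neuroendocrine markers tested, CHGB, a granin of secretory granules, rose from 18.2, 13.8 and 15.3 CPM to 25.7, 25.1 and 24.3 CPM (log2 fold change 0.67, SE 0.14, edgeR adjusted p = 0.00443) and was called in 5 of 6 fits with a library left out. SYP, a synaptic vesicle protein, was at 83.8 ± 1.04 and 117 ± 8.80 CPM (0.48, adjusted p = 0.00640). The granins CHGA, SCG2 and SCG3 had log2 changes of −0.52, −0.08 and −0.19 (adjusted p in edgeR from 0.252 to 0.721), and ENO2 had 0.08. The list had 3 positive and 3 negative members and a median of 0.0028. The reference genes GAPDH and ACTB had log2 changes of −0.06 and −0.16 (adjusted p of 0.540 and 0.0851 in edgeR), and with the offset −0.21 and −0.28 (adjusted p of 0.0321 and 0.00348).

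The knockdown effect with R1881 was then set beside that in vehicle, which rests on 6 other libraries of the same cells. In vehicle the mean of METTL3 was 49.6 CPM in the control arm and 26.8 CPM after knockdown (log2 fold change −0.89). In vehicle 36 genes were DEGs (0.202% of those tested). R1881 called 25 of them as DEGs with the same sign, which is 69.4% of the DEGs in vehicle and 4.26% of those with R1881. The 17 that were lower in both included TMEM123, METTL3, GNB1, PM20D2, RRP1B, PHACTR2, COPS8, AASDHPPT and VASH2, with vehicle log2 fold changes from −0.78 to −1.39. The 8 that were higher in both included KLB, the coreceptor β-Klotho (0.69 with R1881 and 0.87 in vehicle), and TPPP3, a tubulin-binding protein (0.95 and 0.63). KLB and TPPP3 were named here after their values were seen.

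Most other DEGs with R1881 pointed the same way in vehicle at a smaller size. They were chosen by their size with R1881, so the smaller size in vehicle does not by itself show a weaker effect there. Of the 411 that were higher 92.0% had the same sign in vehicle, with a median log2 fold change of 0.32, and of the 176 that were lower 81.8%, with a median of −0.27. The same sign was found for 72.4% of all genes tested. In LNCaP:C42 with R1881, where 115 of 16435 genes were DEGs (0.7%), 16 genes were DEGs in the same direction as in 22Rv1, or 13.9% of the former and 2.73% of the latter. TMEM123, RRP1B, VASH2, AASDHPPT and COPS8 were among the 11 of these that were lower. METTL3 itself fell less in LNCaP:C42, with a log2 fold change of −0.57 (edgeR adjusted p = 0.0256), and stayed below the fold threshold. CYP51A1 and PSENEN did not pass there, with log2 changes of 1.23 and 1.25 (adjusted p of 0.0905 and 0.104 in edgeR). The sign was shared by 95.1% of the DEGs that were higher and 78.1% of those that were lower, against 76.0% of the 14985 genes tested in both lines.

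The knockdown effect differed between R1881 and vehicle for 3 genes by the interaction test (edgeR adjusted p under 0.05, 0.0168% of the genes tested), and 1101 genes had an unadjusted p under 0.05. IGFBP3, a binding protein of insulin-like growth factors, was at 346, 323 and 308 CPM with siSCR and at 228, 197 and 213 CPM with siMETTL3 under R1881. In vehicle it was at 124, 121 and 127 CPM against 141, 127 and 147 CPM, so it was lower with siMETTL3 under R1881 and not in vehicle. AGR2, a disulfide isomerase of the secretory pathway, was at 226, 224 and 223 CPM against 166, 160 and 169 CPM under R1881 and at 69.8, 73.5 and 79.4 CPM against 97.0, 85.9 and 91.6 CPM in vehicle. AKAP12, an anchoring protein for protein kinase A, was at 516, 458 and 505 CPM against 400, 368 and 329 CPM under R1881 and at 25.2, 22.3 and 22.4 CPM against 28.6, 29.9 and 26.9 CPM in vehicle.

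All 3 genes were higher with R1881 than in vehicle in both arms. Under siSCR the log2 fold change by R1881 was 1.39 for IGFBP3, 1.596 for AGR2 and 4.40 for AKAP12, and under siMETTL3 it was 0.62, 0.85 and 3.68, in comparisons that share their libraries with the interaction. The log2 interaction was −0.77 for IGFBP3 (SE 0.11, edgeR adjusted p = 0.00265), −0.75 for AGR2 (SE 0.10, adjusted p = 0.00265) and −0.72 for AKAP12 (SE 0.12, adjusted p = 0.0275). IGFBP3 and AGR2 passed in all 6 fits with a library left out. AKAP12 passed in 2 of them, with an adjusted p of up to 0.176, and did not pass with an offset for gene length (adjusted p = 0.0903). For the knockdown under R1881 alone, IGFBP3 was a DEG (log2 fold change −0.61, SE 0.07, adjusted p = 4.57e-05, called in 4 of 6 fits with a library left out) and AGR2 and AKAP12 stayed below the fold threshold (−0.45 and −0.43). In vehicle alone the knockdown did not pass for IGFBP3, AGR2 or AKAP12. Their log2 fold changes there were 0.16, 0.30 and 0.29 (edgeR adjusted p of 0.338, 0.0575 and 0.153).

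**Figure D5:**
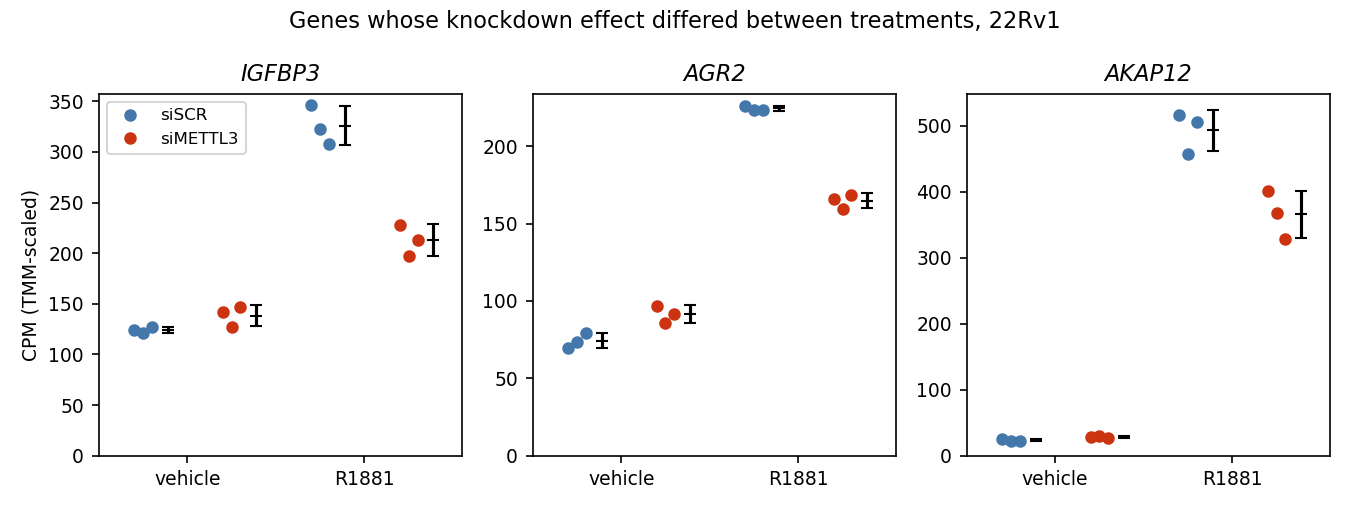
CPM of IGFBP3, AGR2 and AKAP12 in the 12 libraries of 22Rv1 by treatment, siSCR in blue and siMETTL3 in red, with bars for the mean and SD of 3 libraries and axes starting at 0. With R1881 every siMETTL3 library lay below every siSCR library for all 3 genes, and in vehicle every siMETTL3 library lay above every siSCR library. The knockdown passed the adjusted p for none of them in vehicle. The genes were chosen by the interaction test on these libraries, and with R1881 the arms did not overlap in 42.8% of all genes tested.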

How the data were processed

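RNA-seq libraries of prostate cancer cell lines were analysed from gene counts. The deposited values are raw counts, made by the authors with featureCounts 1.5.0 on the genes of Ensembl release 83 (GRCh38), as fragments and with no strand option per the file headers. Reads had been trimmed with Trim Galore and aligned with STAR. Of 60675 genes, 41209 were named from the reference tables.

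The 12 libraries of 22Rv1 were fitted together with edgeR 4.0.16 in R 4.3.3 (TMM, filterByExpr with a count minimum of 10 and a total of 15, glmQLFit and glmQLFTest), with a mean per condition and 8 residual degrees of freedom. P-values were adjusted by Benjamini-Hochberg over all genes tested, and the interaction of siRNA and treatment was called without a fold threshold. Standard errors were taken as |log2 fold change|/√F. LNCaP:C42 was fitted separately in the same way. METTL3 was also tested with an exact permutation test in scipy 1.17.1. Words of 7 bases were counted in canonical 3′ UTRs of GENCODE 44. Offsets were splines of log2 CPM on GC content and log length (5 degrees of freedom, per library). Simulated data were used to test the scripts. Alternatives were DESeq2 1.42.0, RLE size factors, library size alone, no filter, a stricter filter (10 or more counts in each library), the replicate number as a block, the 6 libraries alone, an adjusted p under 0.01, no fold threshold, glmTreat and leaving out each library.

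The genes named were METTL3, the 10 largest rises and 10 largest falls among DEGs with a symbol, a mean of at least 1 CPM and arms that do not overlap, the genes called for the interaction, called members of the lists with up to 4 of the most abundant others, the 10 carriers of the site with the largest falls, and genes of earlier interest (AASDHPPT, RRP1B, VASH2, TMEM123, GNB1, KLK3, TMPRSS2, FKBP5). Some genes that this rule names are not reported here. List members that passed the adjusted p alone were named after their values were seen. Members, lists and tests were chosen with earlier results of these data known. The offsets, the site CCGTACT and the gene families were chosen after seeing the data. Chi-square values between replicates were over 2 per degree of freedom, so no library was a copy of another.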

Additional observations from a re-analysis of the deposited data

Results flagged for a closer look

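The effect of siMETTL3 differed between R1881 and vehicle for 3 genes in a test of the difference itself (edgeR interaction test, adjusted p of 0.00265, 0.00265 and 0.0275). The difference between the log2 fold changes, R1881 minus vehicle, was −0.77 for IGFBP3, −0.75 for AGR2 and −0.72 for AKAP12. DESeq2 called 4 genes in the same test.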

How the results depend on the processing

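METTL3 was called in the same direction under every alternative, with a log2 fold change of −1.14 to −1.26 over the fits with a library left out. The 587 DEGs became 304 with the adjusted p limit at 0.01, 2897 when the fold was ignored and 10 with glmTreat, and numbered 309 to 538 with a library left out. DESeq2 gave 514, the 6 libraries alone 765 and the GC and length offset, which was chosen after seeing the data, 393. The share of DEGs that were higher was 70.0%, and 235 of the 393 were higher with the offset. DESeq2 gave no adjusted p for 92 DEGs, and 103 did not have 10 counts in every library. With no filter on low counts the interaction called 79 genes in place of 3, the DEGs shared with vehicle were 55 in place of 25 and the DEGs among listed genes 13 in place of 8. With the GC offset the interaction called 6 genes, and with the GC and length offset 5, and the DEGs among listed genes were then 5. The difference of medians between carriers of TTTTAAA and other genes was −0.22, and −0.030 and −0.017 with the GC offset and the GC and length offset. With a library left out it was −0.19 to −0.24, the interaction called 2 to 3 genes, the DEGs shared with vehicle were 19 to 23 and the DEGs among listed genes 6 to 10. FKBP5 turned positive with offsets for GC content (0.039), gene length (0.024) and both (0.091), and was not called in any fit. Over all refits of the 43 named genes, 80 values lost the call and 569 kept their direction and side of the threshold. The interaction could not be fitted on the 6 libraries alone, which hold 1 treatment. Causes of these changes were not tested.

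The replicate numbers did not pair the libraries: same-numbered libraries of the 2 arms had correlations of 0.03, −0.01 and −0.02 across genes, which are not independent replicates. With the replicate block 544 DEGs were called, 3 genes for the interaction, 20 DEGs shared with vehicle and 8 DEGs among listed genes, and METTL3 kept −1.18. Depth limits the genes near 1 CPM, where 3 counts are 0.164 to 0.191 CPM before TMM scaling.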

Other observations

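Families read from gene symbols, chosen after their values were seen and so given without a test, showed higher mRNA of ribosomal and respiratory chain proteins with siMETTL3 in 22Rv1 with R1881. Of all genes tested 2.3% were DEGs that were higher and 0.985% DEGs that were lower. Of 80 cytosolic ribosomal protein genes 66 were positive, 35 passed the edgeR adjusted p above 0 and 2 below it, and 4 were DEGs (5%): RPL8, RPL36, RPL41 and RPL26. Of 77 mitochondrial ribosomal protein genes 8 were DEGs that were higher (10.4%) and 0 that were lower, such as MRPS34 at 71.0 ± 2.54 CPM with siSCR and 125 ± 6.09 CPM with siMETTL3 (SD, n = 3). Of 37 nuclear-encoded subunits of complex I, the NADH dehydrogenase, 7 were DEGs that were higher (18.9%), led by NDUFA1 at 26.7 ± 1.497 and 65.4 ± 4.24 CPM. Of 37 subunits of complexes III to V, 6 were DEGs that were higher (16.2%), led by COX6A1 of cytochrome c oxidase at 59.1 ± 5.77 and 142 ± 10.4 CPM (log2 fold change 1.26, edgeR adjusted p = 0.00104). The medians of these 4 families were 0.19, 0.16, 0.23 and 0.16 on the log2 scale, and 0.17, 0.11, 0.24 and 0.24 with the GC and length offset, against −0.02 over all genes without it. In vehicle the medians of the last 3 were 0.06, 0.12 and 0.03, and that of the cytosolic ribosomal proteins was within 0.01 of 0.

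The mRNAs encoded by the mitochondrial genome pointed the other way. Of 13 tested 12 were negative and 6 passed the edgeR adjusted p, with a median log2 fold change of −0.29, and their summed level was 42600 to 47080 CPM in the siSCR libraries and 33130 to 36010 CPM in the siMETTL3 libraries. In vehicle their median was −0.10. Of 13 mitochondrial tRNAs 4 were DEGs that were higher and 1, MT-TL1, was lower.

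Among the 2419 genes with a mean of at least 100 CPM, 26 DEGs were higher and 8 lower with siMETTL3. Over all 17865 genes tested the shares were larger, at 2.3% higher and 0.985% lower. The lower ones beside TMEM123, GNB1 and IGFBP3 were the kinase MAPK6, the endoplasmic reticulum degradation factor EDEM1, the chloride channel protein CLIC4, the transcription factor THAP5 and the actin-binding protein NEBL. CLIC4 went from 563 ± 17.9 to 345 ± 14.4 CPM (log2 fold change −0.71, edgeR adjusted p = 2.99e-05) and MAPK6 from 239 ± 9.76 to 140 ± 7.18 CPM (−0.77, adjusted p = 1.74e-05). These genes were chosen after their values were seen.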
